A study of Mus musculus with 2 samples.

Results

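Transcripts annotated as nonsense_mediated_decay were described in total RNA from mouse cerebral cortex. All 7186 transcripts with this annotation, out of 141767 annotated transcripts in the deposited estimated-count table, were taken as members; they belong to 4576 of 55450 genes. The annotation alone chose them, and no measured value did. The mice were B6CASTF1/J, the first-generation cross of C57BL/6J and CAST/EiJ; they were male and 25 days old, the tissue was the left side of the cortex, and 300 ng of RNA went into each library. There was 1 group of 2 samples, replicate 1 and replicate 2, with no genetic or drug treatment in the labels and no contrast between conditions. The labels call the samples biological replicates with their own biobank numbers but repeat 1 donor entry, and they are taken here as separate animals on that ground. The gene models are GENCODE M21 on mm10 (GRCm38), the reference of 1 inbred strain, while these animals carry CAST/EiJ alleles as well.

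Nonsense-mediated decay (NMD) is a surveillance pathway of the cytoplasm. When a ribosome stops at a stop codon that lies well upstream of an exon junction, the protein complex left on that junction by splicing marks the stop as premature, UPF1 and its partners are recruited, and the transcript is degraded. Alternative splicing that brings in such a stop, through an extra exon with a stop in frame (often called a poison exon), a skipped exon or a longer exon, lowers the output of a gene. Splicing regulators of the SR and hnRNP families are well known for adjusting their own levels in this way. The annotation is a prediction from the position of the stop codon, so a transcript under this name is measured here as an RNA level, and its decay was not measured.

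The stop codon of 12 members is shown to make kinds of stop in these transcripts visible. These members were chosen after their values were seen. They stood at or near the front of the lists described below, most of them in both quantifications. Tra2a stood further back among the SR genes by expected counts. All sequences are from the GENCODE M21 transcripts, are written 5′ to 3′ along the transcript, and have the stop codon in capitals. In the first 6 the stop lies in an exon that overlaps no exon of a protein_coding transcript of the gene, and the sequence runs from the first base of that exon to the stop. The stops are at chr12:8699118-8699120 on the plus strand in Pum2-207 (exon 3 of 22), chr15:93317554-93317556 on the minus strand in Yaf2-202 (exon 3 of 5), chr5:115328426-115328428 on the plus strand in Srsf9-205 (exon 2 of 6), chr17:29039485-29039487 on the plus strand in Srsf3-201 (exon 4 of 7), chr6:49252965-49252967 on the minus strand in Tra2a-202 (exon 2 of 9) and chr14:18277924-18277926 on the plus strand in Nkiras1-201 (exon 3 of 5).
Pum2-207: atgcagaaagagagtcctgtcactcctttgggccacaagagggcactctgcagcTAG
Yaf2-202: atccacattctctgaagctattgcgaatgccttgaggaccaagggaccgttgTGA
Srsf9-205: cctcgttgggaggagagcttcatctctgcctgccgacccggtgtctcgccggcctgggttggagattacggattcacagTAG
Srsf3-201: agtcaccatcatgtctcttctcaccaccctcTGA
Tra2a-202: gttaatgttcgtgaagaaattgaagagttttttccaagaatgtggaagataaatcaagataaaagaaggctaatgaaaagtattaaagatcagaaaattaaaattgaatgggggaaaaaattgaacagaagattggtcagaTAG
Nkiras1-201: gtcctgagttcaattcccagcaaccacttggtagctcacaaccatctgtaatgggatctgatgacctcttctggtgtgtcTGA

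In the other 6 no such exon was needed, and the last 30 bases up to the stop are shown. The first 4 of these stop inside the coding sequence of the gene's protein_coding transcripts, and Atp2a2-203 and Mobp-204 use the stop of a protein_coding transcript and have a further junction downstream. The stops are at chr11:6418241-6418243 on the plus strand in Ppia-201 (exon 3 of 5), chr1:161244207-161244209 on the minus strand in Prdx6-208 (exon 2 of 4), chr4:148620716-148620718 on the minus strand in Tardbp-228 (exon 3 of 5), chr3:138898286-138898288 on the plus strand in Tspan5-207 (exon 7 of 8), chr5:122457151-122457153 on the minus strand in Atp2a2-203 (exon 20 of 21) and chr9:120173188-120173190 on the plus strand in Mobp-204 (exon 4 of 6).
Ppia-201: caaagacagcagaaaactttcgagctcTGA
Prdx6-208: tcgagaaggacgctaacaacatgcctgTGA
Tardbp-228: aactatcccaaaggtcaagaaagatctTAA
Tspan5-207: agaaaccagaagttgaccaacagattgTAA
Atp2a2-203: actaactttagcgatatgttctggtctTGA
Mobp-204: aggagcaggtcaaccccaaggaagaagTGA

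Each library had 2 quantifications of the same transcripts. The table with estimated counts held 31012279 counts in replicate 1 and 33760788 in replicate 2, and the table with expected counts held 30503944 and 33263801. TPM is a level per length, scaled so that it sums to the same total over the rows of every table. The tissue carried its defining markers: Slc17a7, the vesicular glutamate transporter of cortical neurons, stood at 1010 and 1005 TPM in the estimated-count table, and Slc1a2, the glutamate transporter of astrocytes, at 1268 and 1115 TPM, while, of markers from outside the brain, Alb of liver was at 0 in both, Krt5 of epithelium at 0 and 0.0313 TPM and Myh6 of heart muscle at 6.77 and 2.55 TPM. The choroid plexus markers Ttr and Folr1 were both higher in replicate 2 (Ttr 28.8 and 296 TPM), as were all 3 oligodendrocyte markers (Mbp 482 and 646 TPM), while both markers of red blood cells were lower in it. In bulk tissue, fewer cells of a type and less RNA per cell cannot be told apart.

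Members took a small part of the RNA, close to the same in both animals. In the estimated-count table they held 602428 counts in replicate 1 and 654075 in replicate 2, or 1.94% of all counts in each (1.940% ± 0.0037, SD, n = 2). Their summed level was 26166 and 26419 TPM, 2.62% and 2.64% of all TPM. In the expected-count table they held 473931 and 519645 counts, 1.55% and 1.56%, and 12258 and 12270 TPM, 1.23% of all TPM in each. The animals lay closer to each other than the tables did. The tables also differed in scale: misc_RNA transcripts took 33.3% and 33.8% of the TPM in the expected-count table and under 0.01% in the other. The members' sum was also set against the TPM of genes that have a protein_coding transcript, without mitochondrial genes. It came to 3.46% and 3.50% of that TPM by estimated counts and 2.69% and 2.72% by expected counts. Members of genes without a protein_coding transcript are included in the sum. Retained_intron transcripts, another class of incompletely or alternatively spliced RNA, summed to 67313 and 63928 TPM in the estimated-count table, above the members in both animals. That class holds 21848 transcripts and the members number 7186, so these sums are over classes of unlike size.

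A transcript counted as detected when each animal had it at 1 TPM or more. By estimated counts 2246 members (31.3%) of 1842 genes were detected, beside 29.9% of all transcripts, 41.0% of protein_coding and 39.9% of retained_intron transcripts. By expected counts 1421 members (19.8%) were detected, beside 23.8% of all transcripts, 36.1% of protein_coding and 28.7% of retained_intron ones. Members were thus a little above transcripts in general by estimated counts and below them by expected counts, and below coding ones in both tables. Both tables agreed on 1148 members of 1017 genes, which is 51.1% of those detected by estimated counts and 80.8% of those detected by expected counts; for protein_coding transcripts the same shares were 77.1% and 87.7%. The expected-count table also gives a credibility interval for each TPM, and its lower bound reached 1 TPM in both animals for 758 members. Set against the number detected by expected counts this is 53.3%, and for protein_coding transcripts the same figure is 77.2%. At the other end 2124 members (29.6%) were listed at 0 in both animals by estimated counts and 2597 (36.1%) by expected counts. Over all transcripts the shares at 0 were higher, 39.2% and 40.4%, and over retained_intron transcripts lower, 17.9% and 13.8%. For protein_coding transcripts the share was close to that of members by estimated counts and lower, at 33.2%, by expected counts. A count of 0 allows up to 3 counts, which for a member of the median length, 1255 bases, is 0.213 TPM in replicate 1 and 0.191 TPM in replicate 2; this covers counting error and not the assignment of reads that transcripts of a gene share.

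The members' stop codons fell into a few kinds. A stop was annotated for 7184 of them, and in 7146 (99.5%) it lay more than 50 bases upstream of the last junction, with a median distance of 334 bases; this property is what the annotation is made from, and only 0.696% of 45098 protein_coding transcripts with a stop had it. The stop codon was TGA in 4158 members (57.9%), TAA in 1613 (22.5%) and TAG in 1413 (19.7%). In 4155 (57.8%) it lay inside the coding sequence of a protein_coding transcript of the same gene, in 1435 in an exon overlapping no exon of such a transcript, in 882 in the extended part of an exon, and in 505 at the stop of a protein_coding transcript. Another 112 had it in an untranslated part, and 95 belong to genes with no protein_coding transcript. Of 5109 members whose coding sequence could be read from an annotated start, 5100 began with ATG and 5109 held no earlier stop in frame.

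Detection is given by kind of stop. Members with the stop in a separate exon were detected in 36.3% of cases by estimated counts and 17.6% by expected counts, those stopping within coding sequence in 28.1% and 19.1%, and those with an extended exon in 36.6% and 23.9%. Members were also grouped by sequence that no other transcript of the gene has. Bases of their own were present in 3145 members, a junction but no base of their own in 3124, and neither in 917. In that order 37.2%, 26.0% and 28.6% were detected by estimated counts, and 21.3%, 18.4% and 19.4% by expected counts. The last group received 13.1% of the members' estimated counts and 16.1% of their expected counts. Members at transcript support level 1, the best annotated, numbered 2080 (28.9%) and held 51.5% of the members' estimated counts and 54.8% of their expected counts, but 29.3% and 36.1% of their TPM; their median length was 2440.5 bases. Members were shorter than protein_coding transcripts, with medians of 1255 and 1816 bases.

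**Figure D1:**
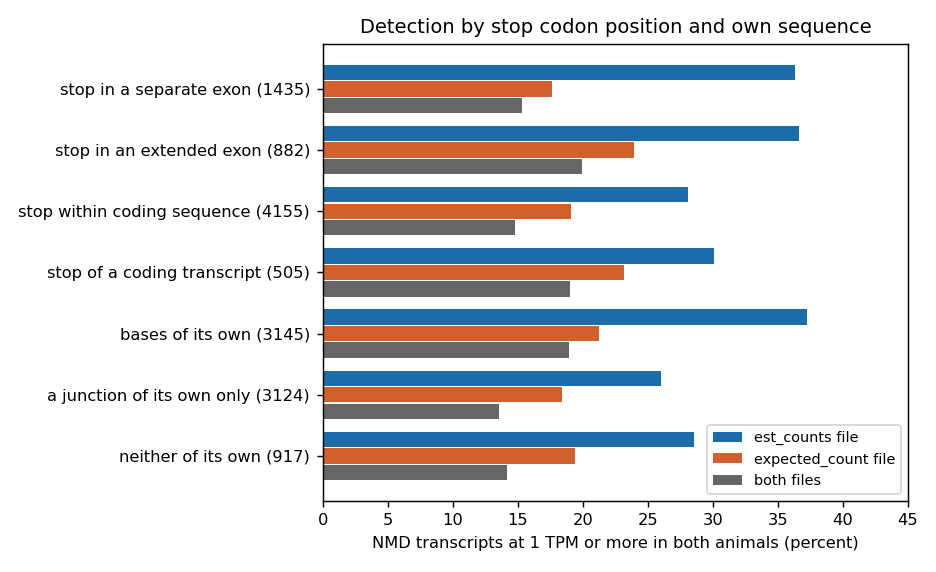
Percent of NMD transcripts at 1 TPM or more in both animals (horizontal axis) by where the stop codon lies and by sequence that no other transcript of the gene has; bars stand for the estimated-count table (est_counts), the expected-count table (expected_count) and both, with the number of members in parentheses. Blue bars run from 26.0% to 37.2%, orange bars from 17.6% to 23.9%.

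The share of a gene's output in these transcripts was taken as the members' summed TPM over the TPM of all transcripts of the gene, in the 3300 genes at 5 TPM or more in both animals. The median share was 7.01% in replicate 1 and 6.77% in replicate 2 by estimated counts, with upper quartiles of 19.1% and 19.3%, and 3.99% and 4.29% by expected counts. Shares of 10% or more in both animals were found in 1168 genes (35.4%) by estimated counts and in 735 (22.3%) by both tables. Shares of 25% or more in both animals and both tables were found in 302 genes (9.15%), and of 50% or more in 68 (2.06%), 57 of which have a protein_coding transcript. A member was the most abundant transcript of its gene in 275 genes by estimated counts, 238 by expected counts and 155 by both. Within a gene the animals differed by a median of 2.08 percentage points by estimated counts, and the tables by 3.28; 344 genes were over 10 points apart between animals and 727 between tables. Measured as a share of estimated counts, which is not divided by length, the median was 3.33% in place of 6.89%.

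**Figure D2:**
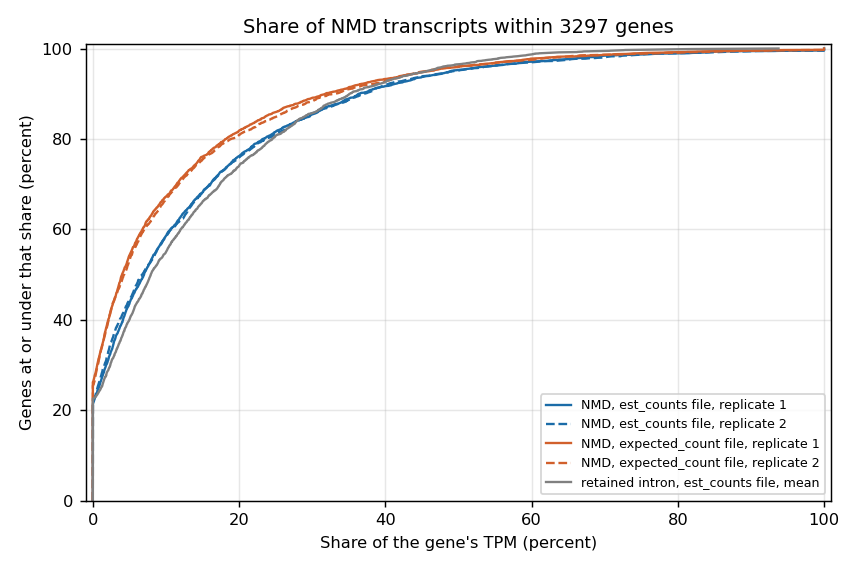
Cumulative percent of genes (vertical axis) at or under a given NMD share of the gene's TPM (horizontal axis, percent) for the 3297 genes at 5 TPM or more with a level in both tables, 1 line per animal and table; the grey line is the share of retained_intron transcripts, with genes that have none at 0. The 2 animals nearly coincide within a table, and the expected-count lines lie above the others because more genes have a low share there.

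The leading genes were ranked by summed NMD level in the estimated-count table. Ppia, which encodes cyclophilin A, a peptidyl-prolyl isomerase and target of cyclosporin, came first in both tables. Its only member, Ppia-201 (chr11:6415870-6419815, plus strand, 746 bases), stood at 792 and 879.8 TPM by estimated counts and 689 and 743 TPM by expected counts. It made 44.9% and 47.4% of the gene's TPM by the former and 82.5% and 81.9% by the latter. The tables were thus closer in its TPM than in its share. Its counts were further apart than its TPM, at 4927 and 6144 estimated and 8975 and 10831 expected counts. As a mean share of the gene's counts it made 37.0% by estimated and 89.3% by expected counts. By expected counts the protein_coding transcript Ppia-202 had only 8.31 and 11.8 TPM, against 466 and 493 TPM by estimated counts. Ppia has processed copies elsewhere in the genome, and how reads shared with them were split is not given in the sources used here, which makes its values uncertain.

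Atp2a2, the calcium pump of the endoplasmic reticulum (SERCA2), also had a level by TPM that was close between the tables, though its share of the gene differed. Atp2a2-203 (chr5:122453513-122502174, minus strand, 5674 bases) stood at 249.7 and 244 TPM by estimated counts and at 219 and 214 TPM by expected counts, with 20642 and 22429 estimated counts. That was 51.1% and 50.1% of the gene by estimated counts and 66.0% and 65.5% by expected counts. As shown above, it ends at the stop codon of a protein_coding transcript and differs downstream of it, and it has 448 bases of its own.

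Several other leading genes led in 1 table only. Ndrg4, a member of the N-myc downstream-regulated family that is abundant in brain, had 505 and 521 TPM by estimated counts and 15.2 and 23.1 TPM by expected counts. Rpl27a, a protein of the large ribosomal subunit, had 289 and 312 TPM against 2.78 and 4.42 TPM. Clu, which encodes the secreted chaperone clusterin, had 305 and 286 TPM against 3.59 and 5.02 TPM. Skp1a, the adaptor of SCF ubiquitin ligases, had 191 and 183 TPM against 2.97 and 3.91 TPM. In each of these the animals were close and the tables over 10-fold apart. Pip5k1c (222 and 199 TPM against 86.5 and 80.7 TPM), a kinase that makes the lipid PIP2 at synapses, and Cbarp (206 and 207 TPM against 116 and 119 TPM), a regulator of calcium channels, kept high levels in both. Gpi1, a glycolytic isomerase, had 166 and 173 TPM by estimated counts and 84.1 and 71.5 TPM by expected counts, and Nrcam, a neuronal adhesion molecule, had 161 and 145 TPM and 57.3 and 52.4 TPM. Dgkz had 198 and 200.5 TPM by estimated counts and 9.52 and 13.0 TPM by expected counts, also over 10-fold apart. The remaining ones were Hras, Eef1b2 and Psma3, between 138 and 166 TPM by estimated counts and between 16.6 and 46.85 TPM by expected counts.

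Pcp4, which encodes a small calmodulin-binding protein, is the leading gene whose animals disagreed. Its member Pcp4-202 had 0 TPM in replicate 1 and 347 TPM in replicate 2 by estimated counts, and 0 and 1.76 TPM by expected counts. The protein_coding transcript Pcp4-201 was lower in replicate 2 by estimated counts, at 453 and 196 TPM, and stood at 197 and 231 TPM by expected counts. Pcp4-202 has 11 bases of its own. The 15 leading genes held 15.04% of all NMD TPM by estimated counts and the 15 leading by expected counts held 20.1%; 5 genes were in both sets, and 59 were shared among the leading 100.

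**Figure D3:**
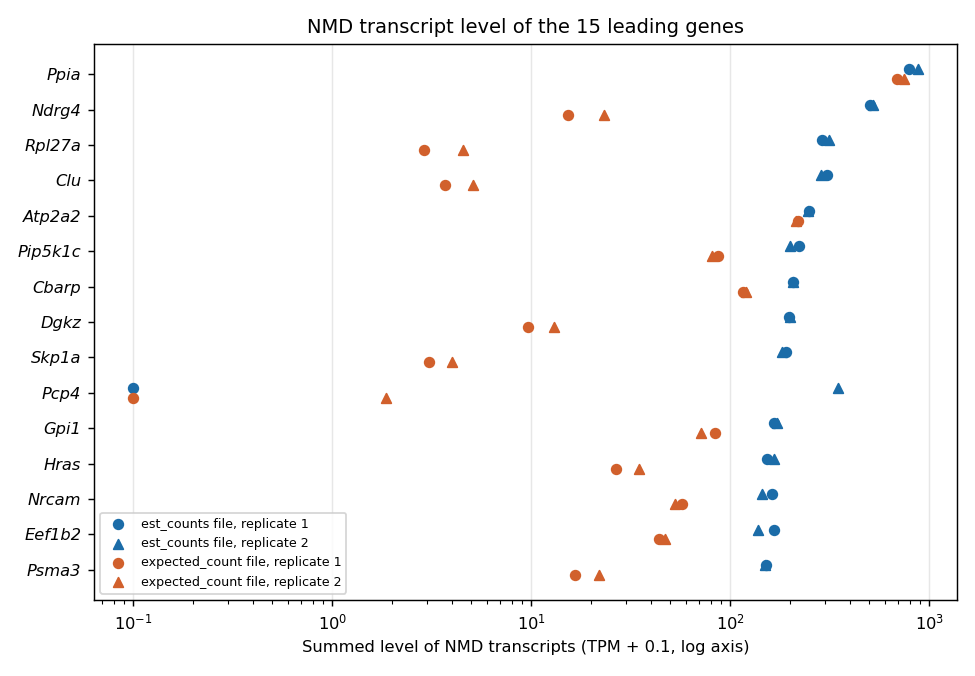
Summed TPM of NMD transcripts (horizontal log axis, TPM + 0.1) of the 15 genes with the highest mean in the estimated-count table; circles are replicate 1 and triangles replicate 2, blue the estimated-count and orange the expected-count table. Ppia and Atp2a2 have all 4 points close together. Ndrg4, Rpl27a, Clu, Skp1a and Dgkz have orange points more than 10-fold to the left, and Pcp4 has a point at 0 TPM in each table.

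Next come 53 genes with a protein_coding transcript and an NMD share of 50% or more in both animals and both tables. By estimated counts they had 5 TPM or more and 100 or more NMD counts in both animals. Neither minimum was asked of the expected-count table, where Parp10 had 11.3 and 17.6 NMD counts and Commd2 96.1 and 95.4. Gm38394 was at 50% in both animals and both tables. These shares are by TPM; as a share of counts, which are not divided by length, the mean over the animals was 50% or more in both tables in 39 of the 53. Prdx6, an antioxidant peroxiredoxin, had 139 and 137 TPM of NMD transcript by estimated counts and 88.8 and 85.9 TPM by expected counts. Prdx6-208 made 52.0% and 52.7% of the gene in the first table and 63.5% and 61.2% in the second. Tspan5, a tetraspanin, had 112 and 116 TPM against 78.8 and 79.4 TPM. Ppp1cb, a catalytic subunit of protein phosphatase 1, had 128 and 134 TPM against 99.5 and 102 TPM, split over Ppp1cb-205 and Ppp1cb-203, both of which use the stop of a protein_coding transcript. Its NMD share was 24.9% of estimated counts and 28.6% of expected counts, against 63.6% and 59.3% of TPM. Ndufs4, a subunit of respiratory complex I, had 116 and 130.3 TPM against 57.6 and 59.1 TPM.

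Others of the 53 include genes of neurons. Syt16, an atypical synaptotagmin, had a share over 80% in all 4 measurements. Syt16-201 had 53.1 and 57.8 TPM by estimated counts and 35.9 and 38.5 TPM by expected counts, which was 83.1% and 82.7% of the gene in the first table and 82.6% and 87.1% in the second. It has 734 bases of its own, and its protein_coding transcript Syt16-203 had 4.52 and 4.34 TPM. Lgi1, a secreted protein of the synaptic cleft in which variants cause epilepsy, had 56.9 and 57.4 TPM against 39.7 and 39.5 TPM. Nkiras1, an inhibitor of NF-kappaB signalling whose separate exon is printed above, had 54.3 and 64.4 TPM against 32.3 and 37.8 TPM. Kif21b, a kinesin motor, had 32.5 and 31.4 TPM against 21.1 and 19.1 TPM.

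Mobp, a protein of myelin, differed between the animals in the same direction in both tables. Mobp-204 was at 83.6 and 115 TPM by estimated counts and at 55.0 and 73.2 TPM by expected counts, and its share was 54.6% and 61.7% in the first table and 55.1% and 57.1% in the second. The oligodendrocyte markers moved with it: Mbp was at 482 and 646 TPM, Cnp at 99.7 and 137 TPM and Mog at 28.1 and 34.9 TPM. Their part in the difference was not tested. Mobp-204 has 1817 bases of its own and uses the stop codon of a protein_coding transcript.

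Pum2, which encodes a Pumilio RNA-binding protein that represses translation, was near that mark. Pum2-207 had 52.2 and 51.8 TPM by estimated counts and 36.8 and 39.0 TPM by expected counts, above the leading protein_coding transcript Pum2-202 at 29.1 and 21.7 TPM and 12.5 and 8.22 TPM. With Pum2-213 the NMD share of the gene was 39.3% and 46.8% by estimated counts and 49.1% and 51.4% by expected counts.

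Shares were also ranked in the estimated-count table alone. Among the 12 highest with 100 or more NMD counts, the share of Gm28036, Rnasek and Tbca was 100% in both animals, and the others, Mvd, Usp50, Adhfe1, Parp10, Mnat1, Zfp383, Styx, Yaf2 and Psma3, lay between 84.1% and 100%. By expected counts Tbca, a tubulin folding cofactor, was at 0% and Rnasek, a subunit associated with the proton pump, at 2.47% and 2.36%, while Adhfe1 (91.5% and 94.6%), Mnat1 (90.0% and 91.4%) and Styx (86.4% and 84.3%) stayed high. Mnat1 is the assembly factor of the CDK-activating kinase; Mnat1-203 had 11.3 and 12.5 TPM by estimated counts and 8.39 and 8.28 TPM by expected counts. Yaf2, a partner of Polycomb proteins, had 58.0 and 56.5 TPM and a share of 85.2% and 84.6% by estimated counts, and 22.0 and 20.7 TPM and 46.6% and 43.9% by expected counts.

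Splicing regulators were examined as the class known for this kind of isoform. Of 13 SR protein and Tra2 genes, which encode activators of splicing that bind exons, 11 have members, and all 11 were at 5 TPM or more. A summed NMD level of 1 TPM or more in both animals was reached by 10 of 11 by estimated counts, beside 55.5% of all genes at 5 TPM or more, and by 8 of 11 by expected counts, beside 38.9%. An NMD share of TPM of 10% or more in both animals and both tables was found in 7 of 11, beside 22.3%. As a mean share of counts, Srsf1 was at 3.63% of estimated and 4.49% of expected counts, and Srsf4 at 4.27% and 4.82%. The others of the 7, Srsf9, Srsf6, Srsf3, Tra2a and Tra2b, were over 10% of counts in both tables. The median share of TPM was 11.97% and 15.3% by estimated counts and 11.5% and 12.6% by expected counts. Over all genes it was 7.01% and 6.77%, and 3.99% and 4.29%.

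Srsf9 led the SR genes in level and share. Srsf9-205 had 24.0 and 27.7 TPM by estimated counts and 16.1 and 18.7 TPM by expected counts, or 45.5% and 51.9%, and 51.4% and 60.4%, of the gene. It was above the protein_coding transcript Srsf9-201, at 12.3 and 12.5 TPM and 8.29 and 8.66 TPM, in both animals and both tables. Srsf6 had 20.5 and 21.6 TPM against 12.4 and 13.2 TPM, with shares between 27.7% and 33.1% by TPM, and 17.6% of estimated and 16.9% of expected counts. Srsf3, whose exon 4 of 7 in Srsf3-201 carries the stop shown above, had 21.4 and 19.5 TPM against 8.41 and 7.99 TPM, with shares of 23.8% and 22.8%, and 15.3% and 16.2%. Tra2a had 20.8 and 18.9 TPM against 4.38 and 4.66 TPM, so the tables differed over 4-fold. Its 306-base exon with the stop overlaps no exon of a protein_coding transcript of the gene. The cause of the difference was not tested. Srsf5, with 1.22% and 0.87% by estimated counts and 0% by expected counts, and Srsf7, with 3.37% and 2.41%, and 2.80% and 1.66%, were at the low end.

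Of 23 hnRNP and other splicing genes, with the kinase genes Clk1 and Clk4 among them, 21 have members. Some have many: Tardbp has 10 and Rbm39 has 8. NMD levels of 1 TPM or more were found in 18 of 21 by estimated counts (beside 55.5% of all genes at 5 TPM or more) and in 17 by expected counts (beside 38.9%). A share of 10% or more in both tables was found in 5 of 21 (23.8%, beside 22.3% of all genes). Clk1 is 1 of these 5. Tardbp, which encodes TDP-43, an RNA-binding protein that limits its own level, had 48.6 and 45.3 TPM against 29.0 and 28.1 TPM, at shares between 29.2% and 32.0% by TPM in all 4 measurements, and 16.8% of estimated and 19.2% of expected counts; Tardbp-228 led with 23.5 and 25.3 TPM and 14.3 and 15.5 TPM. Hnrnpa1 had 56.8 and 61.2 TPM against 41.1 and 42.1 TPM, at shares of 36.5% to 44.0%. Hnrnpdl had 33.8 and 30.6 TPM against 16.1 and 13.0 TPM. Rbm39 had the highest NMD level of the list by estimated counts, 81.8 and 78.3 TPM, and 11.2 and 11.7 TPM by expected counts.

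**Figure D4:**
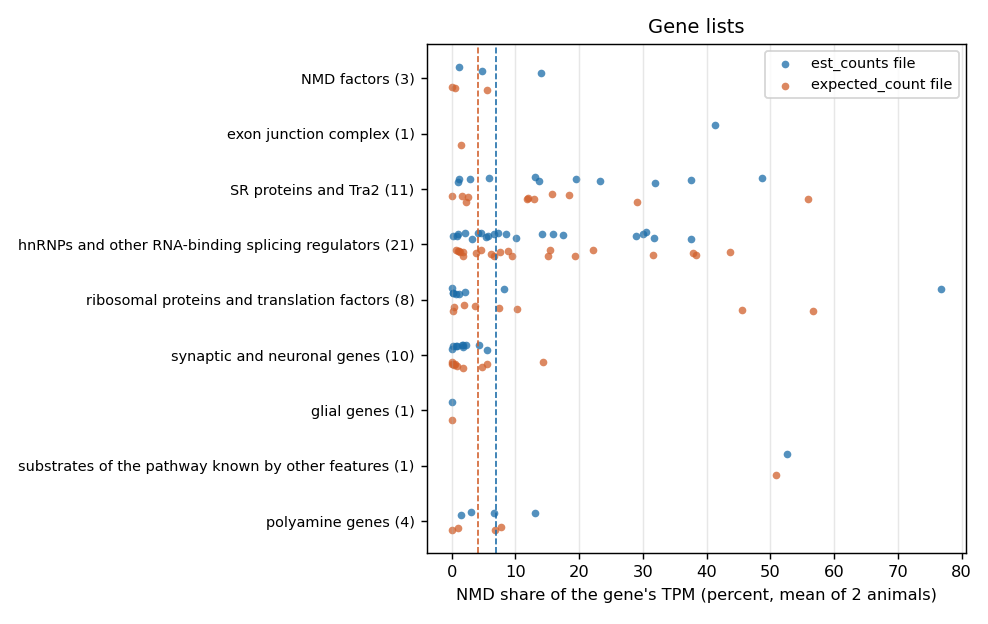
NMD share of each gene's TPM (horizontal axis, percent, mean of 2 animals) for the genes of each list with a member and 5 TPM or more, their number in parentheses; blue points are the estimated-count and orange the expected-count table, and dashed lines are the medians over all 3300 genes. SR protein genes spread up to 48.7% and 55.9%, while the 10 synaptic genes stay under 15%.

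The machinery of the pathway itself was read next. All 12 NMD factors searched were measured. Upf1, the central helicase, was at 40.8 and 40.2 TPM by estimated counts, and Dhx34, another helicase of the pathway, at 5.74 and 5.64 TPM. Of these 12 genes 3 have a member, Smg1, Smg5 and Smg6, beside 4576 of 55450 genes of every type. Smg1-204, in the gene of the kinase that phosphorylates UPF1, had 6.53 and 5.47 TPM by estimated counts and 0 by expected counts. Smg5-202 had 2.58 and 2.34 TPM against 1.85 and 1.49 TPM, and Smg6-202 was under 0.3 TPM everywhere. Of 8 genes listed for the exon junction complex, the mark that the pathway reads, 1 has members. That was Magohb, at 7.58 and 4.03 TPM against 0 and 0.11 TPM.

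Translation genes differed between the tables in either direction. Of 17 ribosomal protein and translation factor genes 8 have members, and 1 of 8 had a share of 10% or more in both tables, beside 22.3% of all genes. That was Rpl12, with 143 and 106 TPM (83.6% and 70.0%) by estimated counts and 24.9 and 24.8 TPM (58.9% and 54.6%) by expected counts. Eif4a2, an RNA helicase of translation initiation, went the other way: 62.4 and 46.0 TPM, or 10.1% and 6.42%, by estimated counts and 176 and 179 TPM, or 45.2% and 45.7%, by expected counts. Its leading member Eif4a2-210 has no base and no junction of its own. Ribosomal protein genes also have many processed copies, with the same uncertainty as for Ppia.

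Lists of neuronal and glial genes were read in the same way. Of 28 synaptic and neuronal genes 10 have members; an NMD level of 1 TPM or more was found in 8 of 10 by estimated counts, beside 55.5% of all genes, and in 4 of 10 by expected counts, beside 38.9%. None of the 10 had a share of 10% or more in both animals and both tables, beside 22.3% of all genes. Dnm1, the dynamin of synaptic vesicle endocytosis, was highest in NMD level, with 44.1 and 32.8 TPM against 31.1 and 32.5 TPM, a share of 3.66% to 5.71%. Ank3, the ankyrin of the axon initial segment, had 19.4 and 18.7 TPM against 10.8 TPM in both animals. Gria3, an AMPA receptor subunit, was at 0.0532 and 0.00042 TPM by estimated counts and 16.5 and 10.8 TPM by expected counts. Of 14 glial genes only Mbp has a member, Mbp-213, which was listed at 0 in both animals and both tables.

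Polyamine genes and other substrates of the pathway gave the remaining values. Azin1, the antizyme inhibitor, had 20.04 and 19.8 TPM against 5.80 and 5.33 TPM, led by Azin1-205. Odc1, the rate-limiting enzyme of polyamine synthesis, had 2.30 and 3.89 TPM against 1.37 and 2.68 TPM, higher in replicate 2 in both tables. Of 10 genes known as substrates for other reasons, such as Atf4 and Gas5, only Tbl2 has members: 10.7 and 10.6 TPM against 6.75 and 6.57 TPM, at shares of 55.3% and 49.8%, and 52.9% and 48.9%, by TPM. As a share of counts the Tbl2 members were 13.2% in the estimated-count and 16.5% in the expected-count table.

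The 2 quantifications were compared over the 3058 members at a mean of 1 TPM or more in either table. The median log2 ratio of estimated-count to expected-count TPM, on TPM + 0.5, was 0.98 for members, 0.58 for 29438 protein_coding transcripts and 0.60 for all 54591 transcripts. On counts + 10 it was 0.36, 0.09 and 0.08. So members stood higher by estimated counts than coding transcripts did, also in counts. Both tables were also scaled to the TPM of genes with a protein_coding transcript, without mitochondrial genes. With this alternative, chosen after seeing the data, the members' median was 0.39. Over 4-fold differences in TPM were found for 813 members (26.6%), beside 20.0% of protein_coding and 20.5% of all transcripts. Of these members 660 (21.6%, beside 13.7% of all transcripts) were higher by estimated counts. On counts + 10 the gap was smaller: 535 members (17.5%) were over 4-fold apart, beside 15.8% of protein_coding and 13.7% of all transcripts. Across members, Spearman's rho of the 2 levels was 0.33, against 0.65 across protein_coding transcripts; this is a description across transcripts, which share libraries and depth.

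The ratio is given by length. The estimated-count table shortened a long transcript by 345 bases in replicate 1 and 340.2 in replicate 2 before dividing by its length, and the expected-count table by 99 bases. For members of 500 to 1000 bases the median log2 ratio of TPM was 1.40 and that of counts 0.41, for members of 2000 to 4000 bases 0.76 and 0.41, and for members of 4000 bases or more 0.67 and 0.31. The ratio of TPM was thus higher in the short members, while that of counts had no such order. Members of 500 to 1000 bases held 42.6% of the members' TPM by estimated counts and 32.3% by expected counts, while protein_coding transcripts of that length held 19.9% and 14.1% of theirs. Counts were over 4-fold apart for 24.8% of members with no base and no junction of their own. They were for 14.3% of those with bases of their own, beside 17.5% of all members compared.

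**Figure D5:**
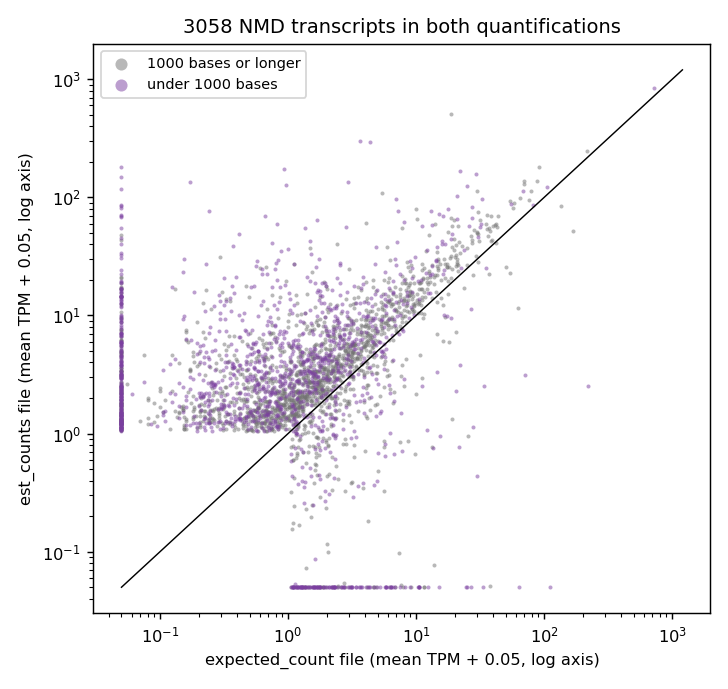
Mean TPM of 3058 NMD transcripts in the estimated-count table (vertical log axis) against the expected-count table (horizontal log axis), each with 0.05 added; purple points are under 1000 bases long, grey points longer, and the line marks equal levels. Most points lie above the line, and the column at the left and the row at the bottom are members listed at or near 0 in 1 table.

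The members furthest apart were often at 0 in 1 table. Higher by estimated counts were Skp1a-204 (185 and 178 TPM against 0), Cx3cl1-203 (152 and 147 TPM against 0), Dgkz-211 (116 and 119 TPM against 0), Rpl37a-203 (158 and 109.8 TPM against 0.24 and 0) and Tbca-203 (84.8 and 88.3 TPM against 0). Those higher by expected counts included Rab11b-204 (0 against 64.6 and 62.6 TPM), Naa60-201 (under 0.01 against 35.9 and 39.6 TPM), Ndufa3-204 (0 and 4.97 against 214 and 222 TPM) and Apc-204 (0 against 35.2 and 31.8 TPM). In Naa60, an acetyltransferase gene, both tables counted reads on a member: estimated counts went to Naa60-202 (541 and 674) and expected counts to Naa60-201 (1628 and 2006), which has no base and no junction of its own.

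Between the animals, 3240 members with a mean estimated count of 10 or more were compared on TPM + 0.5. The median log2 difference of replicate 2 over replicate 1 was −0.05 for members and −0.05 for all transcripts. Over 2-fold differences were found for 614 members (19.0%, beside 10.7% of all, 11.7% of protein_coding and 7.55% of retained_intron transcripts), 284 (8.77%, beside 5.24% of all) higher and 330 (10.2%, beside 5.51%) lower in replicate 2. By expected counts they were found for 437 of 2744 (15.9%, beside 8.61% of all). Only 151 members were over 2-fold apart in the same direction in both tables, and 185 of the 614 (30.1%) had 0 in 1 animal. At a mean count of 50 or more, 160 of 1618 members (9.89%) were over 2-fold apart. The share over all transcripts at that count is not given here, nor is that of transcripts apart in both tables. These 2 counts therefore do not compare members with other transcripts.

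The members furthest apart between the animals show how far a single table goes. Higher in replicate 2 by estimated counts were Pcp4-202, Acot9-203 (0 and 12.8 TPM), Emd-206 (0 and 11.8 TPM), Pum2-213 (0.46 and 18.2 TPM) and Gpcpd1-213 (0.0213 and 7.52 TPM). By expected counts Emd-206 was at 0 in both animals, Pum2-213 at 5.56 and 6.54 TPM and Gpcpd1-213 at 0 and 3.08 TPM. Lower in replicate 2 were Laptm4b-202 (6.13 and 0.0289 TPM, against 4.53 and 3.17 TPM), Brpf3-212 (4.73 and 0.00072 TPM, against 2.26 and 1.01 TPM), Ifngr1-203 (4.29 and 0.00533 TPM, against 1.54 and 0.78 TPM), Rnf14-212 (3.88 and 0.0002 TPM, against 4.27 and 0 TPM) and Gm49396-201 (3.71 and 0 TPM, against 1.58 and 0 TPM). The credibility intervals of the expected-count table overlapped between the animals for Laptm4b-202, 1.01 to 8.57 TPM and 0.42 to 7.28 TPM, and for Pum2-213, 1.95 to 9.55 TPM and 2.56 to 8.91 TPM. With 1 group of 2 animals no test of these differences was possible.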

How the data were processed

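Total RNA-seq of 2 left cortex samples was deposited with 2 transcript tables per library, on mm10 with GENCODE M21. Per the file headers, the authors' first table holds expected counts, TPM, posterior mean TPM and its credibility bounds, a signal-scale level; the second, whose columns carry the names kallisto uses, holds estimated counts and TPM. Which programs, versions and strand settings made them is not given in the sources used here. Spike-ins and numbered rows without a gene name (7 and 10 counts, 2.3e-05% and 3e-05%) were left out of the sums.

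Members were read from the transcript names. Detection was 1 TPM in both animals, shares used genes at 5 TPM, and log2 ratios TPM + 0.5, which understates changes of low transcripts. Named were: the 15 genes highest in NMD TPM; the 12 highest shares with 100 NMD counts and a protein_coding transcript; 5 transcripts furthest apart in each direction between animals (mean count of 50, exact binomial 95% interval excluding 0) and between tables (5 TPM); and up to 4 genes leading each of 9 lists. Other genes, among them those with a share of 50% in both tables and some further members of the lists, were named after their values were seen. Some items that this rule selects are not reported here. Members and lists were chosen with earlier results of these data known. SDs measure the spread between 2 samples, which may be technical. Counting limits cover counting error only. TMM factors and size factors came from edgeR 4.0.16 and DESeq2 1.42.0 in R 4.3.3, on counts rounded to whole numbers, as alternatives; no model was fitted. Steps were tested on simulated data. Python 3.11.15 was used with pandas 2.3.3, numpy 2.4.6, matplotlib 3.10.9 and scipy 1.17.1.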

Additional observations from a re-analysis of the deposited data

How the results depend on the processing

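No paired analysis was possible because there is 1 group and its replicate numbers pair with nothing. The NMD share of all TPM was 2.63%, 1.23% by expected counts, and 2.62% to 2.64% without either replicate. Against the TPM of protein-coding genes, without mitochondrial ones, it was 3.48%. The share of counts was 1.94%, 1.56% by expected counts, and 1.94% without either replicate. The median share within genes was 6.89%, 4.14% by expected counts, 3.33% by estimated counts in place of TPM, 8.74% over NMD plus protein_coding transcripts, and 6.75% to 7.08% without a replicate. Detected members numbered 2246, 1421 by expected counts, and 2690 to 2759 without a replicate. Of the 15 leading genes 5 were kept by expected counts and 13 to 14 without a replicate. The median log2 ratio of the tables was 0.98, 1.17 with a pseudocount of 0.1, 0.79 with 1, 0.26 with no filter, 0.73 at 10 counts or more, 0.86 on posterior mean TPM, 0.88 to 0.89 without a replicate and, chosen after seeing the data, 0.39 when rescaled to protein-coding genes and 0.36 on counts. Members over 4-fold apart numbered 813, 1237 and 492 with pseudocounts of 0.1 and 1, 535 on counts, and 850 to 880 without a replicate. Members over 2-fold apart between animals numbered 614, 160 at a mean count of 50 and 1173 with no filter. Of 97 genes checked, the share of 83 moved by more than the spread between animals from table to table, 63 of the 97 being lower by expected counts. The cause of these shifts was not tested. Depth limits members near 3 counts, and with 2 animals an SD is a rough figure.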
